A study of Rattus norvegicus with 16 samples.

Results

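The 45 genes described here encode the structural proteins of the extracellular matrix or the proteins that fold, crosslink, trim and degrade them, measured in rat liver under the biguanide phenformin. They were taken by symbol from a named list, which was drawn up by role with earlier results of these data known. All 45 had a probe set of their own among the 22093 genes with a single-symbol probe set, and none was dropped for a low value. By role the list holds 5 fibrillar collagen genes, 3 collagen VI genes, 2 fibril-associated collagens, 8 basement membrane genes, 6 proteoglycans, 6 elastic fibre genes, 4 matricellular proteins, 7 crosslinking and processing genes and 4 genes of matrix turnover.

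Livers came from male RccHan Wistar rats that were 7 to 8 weeks old when assigned to a diet, so the rats of day 14 were older at sampling than those of day 3. They were given 3000 ppm phenformin, a glucose-lowering drug that inhibits respiratory complex I, in the diet for 14 or 3 days, or untreated food for the same times. The 4 groups are phenformin day 14, control day 14, phenformin day 3 and control day 3, with 4 arrays each, hybridised with RNA from whole pieces of liver. The labels state 5 rats per group, housed 2 or 3 to a cage, and the sources used here do not say which rats shared one.

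The matrix of a healthy liver is sparse. Fibrillar collagens types I and III, with the small proteoglycans that bind them, lie in the portal tracts, the capsule and thin strands along the sinusoids, and collagen IV and laminins form basement membranes around vessels and bile ducts. Most of this matrix is made by hepatic stellate cells, portal fibroblasts and endothelial cells rather than by hepatocytes, and procollagen must be hydroxylated, chaperoned, trimmed and crosslinked before it forms stable fibres.

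Levels are given as log2 of the deposited intensity, and differences as log2 changes with their standard error (SE) from one limma fit over all 16 arrays. A call means an adjusted p under 0.05 by the method of Benjamini and Hochberg over all 22093 genes, and every adjusted p below is of that kind. The median probe set of an array lay between 4.95 and 5.11 on the log2 scale. Against that mark, Vcan, Postn and Tnc had group means below the median of the arrays in all 4 groups, and changes of genes this low may be understated.

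After 3 days of phenformin, 12 of the 45 matrix genes were lower than in control livers, 0 were higher and 33 did not pass the test. Among all 22093 genes, 0.901% were called lower and 0.249% higher in this comparison. The 12 were the collagen genes Col1a1, Col1a2, Col3a1, Col6a1, Col6a2 and Col14a1, the proteoglycans Lum and Dcn, the microfibril-associated gene Mfap4, the collagen-binding protein gene Sparc, the crosslinking enzyme gene Loxl2 and the protease gene Mmp2. The log2 change was below 0 in 42 of the 45 genes and had a median of -0.25, against a median of 0.0066 over all genes, of which 48.0% were below 0. In whole liver pieces, fewer cells of a type and less RNA per cell cannot be told apart.

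**Figure D1:**
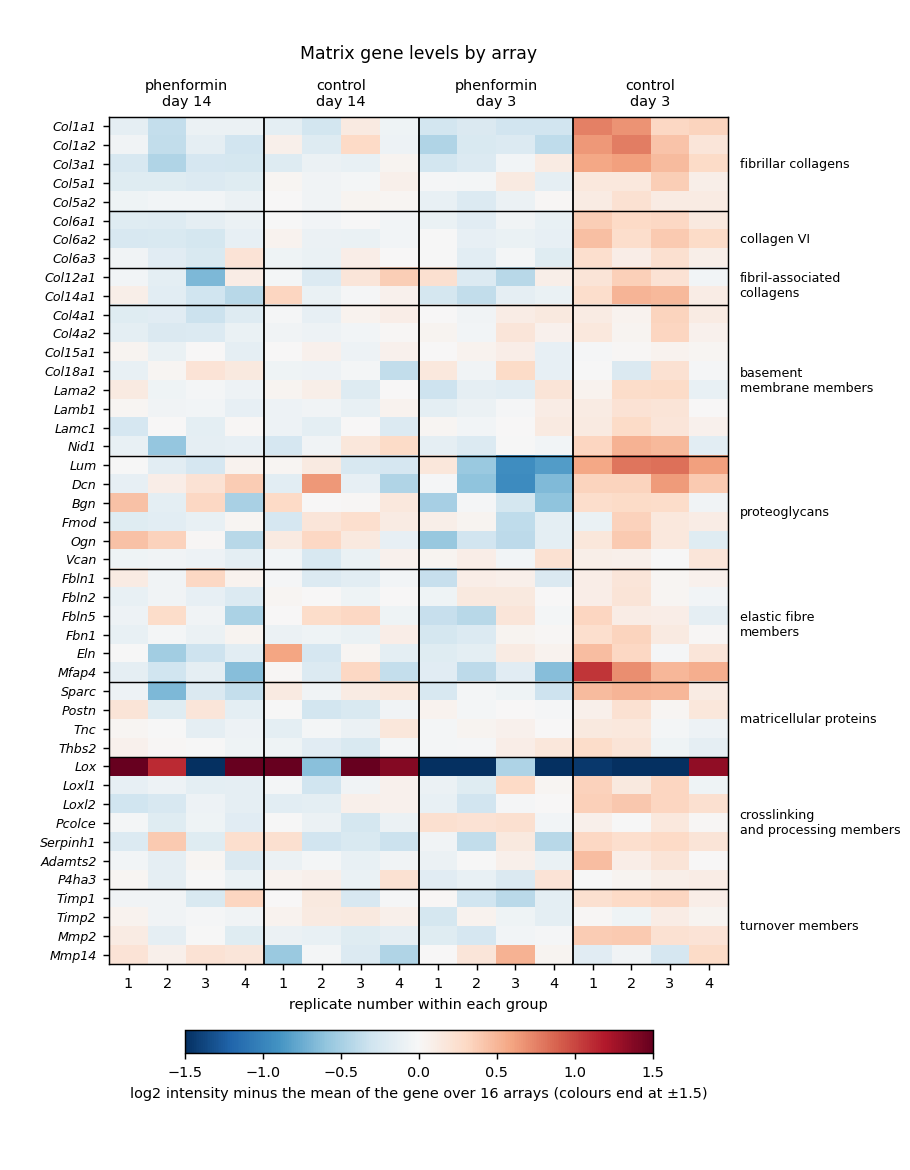
Level of each of the 45 matrix genes on each of the 16 arrays, as log2 intensity minus the mean of that gene over all arrays (blue is low, red is high, colours end at 1.5 in either direction). The control day 3 columns are red for most collagens and proteoglycans, the other 3 groups are mostly pale or blue, and Lox varies beyond the colour scale within groups.

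In 16 of the 45 genes all 4 treated arrays of day 3 lay below all 4 control arrays, and in 0 all 4 lay above. Over all genes these shares were 4.17% and 3.51%. Besides the 12 called genes, the separated ones were Col5a2, Col6a3, Serpinh1 and Timp1. At an unadjusted p under 0.05, 23 genes were lower and 0 higher, against 5.86% and 4.78% of all genes. By role, the median log2 change was -0.59 in fibrillar collagens, -0.51 in proteoglycans, -0.41 in fibril-associated collagens and -0.39 in collagen VI genes. It was -0.28 in turnover genes, -0.26 in elastic fibre genes, -0.23 in crosslinking and processing genes, -0.12 in basement membrane genes and -0.073 in matricellular genes. The matricellular median is set by Postn and Tnc, which lay below the array median in all groups, while Sparc of that class was called. Differences between the role classes were not tested.

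**Figure D2:**
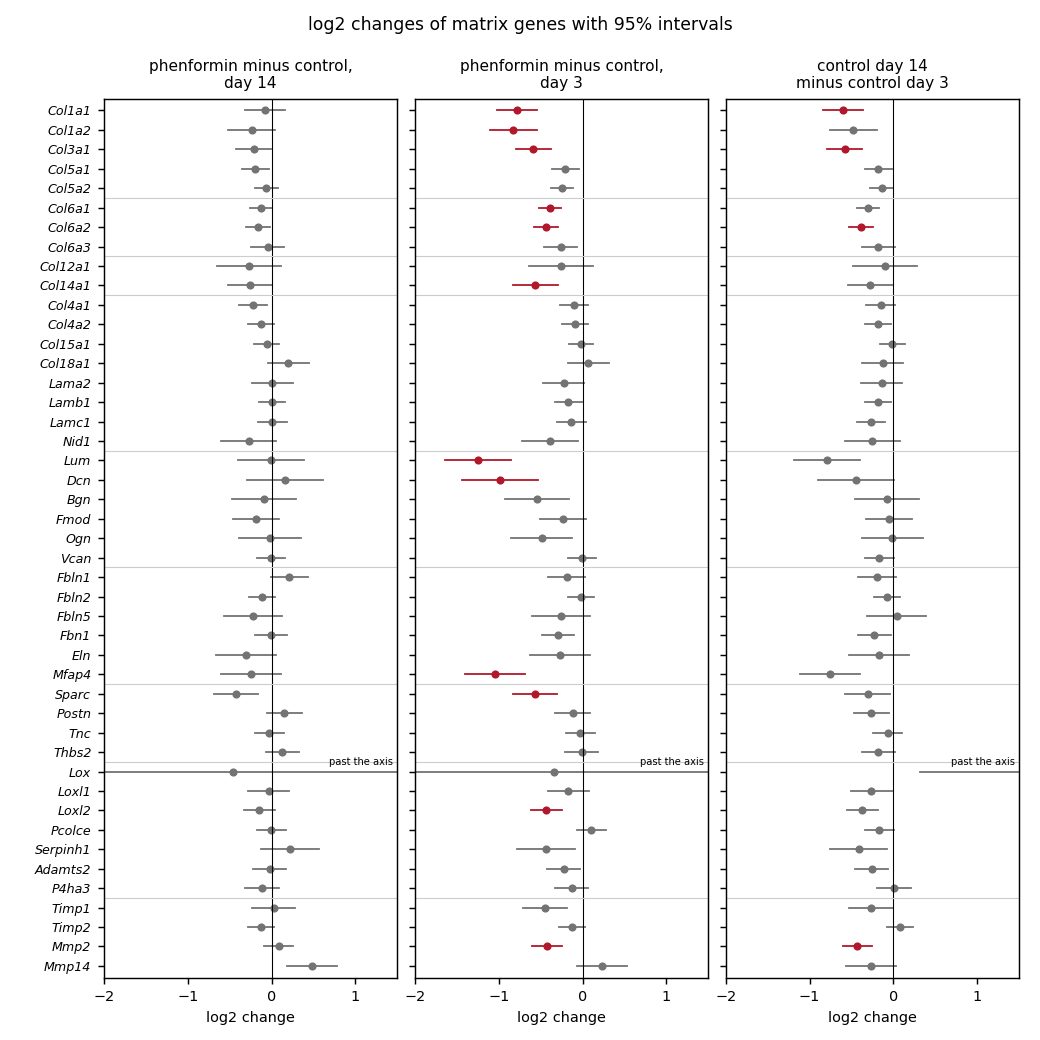
Log2 change of each matrix gene with its 95% interval in 3 comparisons: phenformin minus control at day 14 (left), phenformin minus control at day 3 (middle) and control day 14 minus control day 3 (right). Red marks an adjusted p under 0.05, which 0, 12 and 4 genes reached, and grey lines separate role classes. The intervals of Lox run past the axis.

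Of the 5 fibrillar collagen genes, 3 fell at day 3 and the other 2 did not pass the test. Col1a1, which encodes the alpha 1 chain of type I collagen, had log2 intensities of 7.14, 7.19, 7.12 and 7.12 in treated livers, against 8.17, 8.09, 7.72 and 7.74 in control livers of day 3. The treated values were nearly equal and lay well apart from the control values, which fell into a higher and a lower pair. Col1a1 fell by 0.79 ± 0.11 (SE) on the log2 scale with an adjusted p of 0.00623.

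Its partner chain gene Col1a2 had log2 intensities of 7.99, 8.21, 8.24 and 8.06 in treated livers and 9.09, 9.21, 8.87 and 8.62 in control livers of day 3. Here too the groups did not overlap, and Col1a2 fell by 0.82 ± 0.13 (SE) on the log2 scale with an adjusted p of 0.00776. A second probe set named for Col1a2, not used in the fit, differed by -0.80 on the log2 scale. Col3a1, which encodes type III collagen, had log2 intensities of 10.43, 10.50, 10.66 and 10.83 in treated livers and 11.28, 11.32, 11.18 and 10.99 in control livers of day 3. The highest treated array stayed below the lowest control array by a small margin, and Col3a1 fell by 0.59 ± 0.099 (SE) on the log2 scale with an adjusted p of 0.00905. The type V collagen genes Col5a1 and Col5a2, whose product starts fibrils and limits their width, had log2 changes of -0.20 (adjusted p = 0.304) and -0.24 (adjusted p = 0.0930).

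Collagen VI forms beaded microfilaments that tie cells to the surrounding fibres, and 2 of its 3 chain genes fell at day 3. Col6a1 had log2 intensities of 8.24, 8.18, 8.29 and 8.24 in treated livers and 8.72, 8.64, 8.65 and 8.49 in control livers of day 3. Col6a2 had log2 intensities of 6.47, 6.36, 6.38 and 6.36 in treated livers and 6.93, 6.74, 6.88 and 6.77 in control livers. Both groups were tight and did not overlap for either chain. The falls were 0.39 ± 0.063 (SE) for Col6a1 (adjusted p = 0.00776) and 0.44 ± 0.067 (SE) for Col6a2 (adjusted p = 0.00738), as log2 changes of -0.39 and -0.44. Within groups, Col6a1 and Col6a2 were also among the 3 steadiest of the 45 genes, with pooled SDs of 0.059 and 0.070 on the log2 scale against a median of 0.134 over the 45 genes and 0.176 over all genes. The third chain gene, Col6a3, had a log2 change of -0.26 (adjusted p = 0.271) and no overlap of the groups.

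Fibril-associated collagens decorate the surface of collagen fibrils. Col14a1 had log2 intensities of 9.83, 9.72, 9.95 and 9.99 in treated livers and 10.36, 10.60, 10.58 and 10.20 in control livers of day 3. The groups were apart, and Col14a1 fell by 0.56 ± 0.12 (SE) on the log2 scale with an adjusted p of 0.0389. That call held in 8 of 16 fits that each left out 1 array, with adjusted p up to 0.137. Col12a1 differed by -0.26 on the log2 scale with overlapping groups (adjusted p = 0.698).

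None of the 8 basement membrane genes was called at day 3, and for none of them were the groups apart. Col4a1, which encodes a chain of the collagen IV network, had log2 intensities of 6.71, 6.64, 6.81 and 6.85 in treated livers, against 6.82, 6.75, 7.03 and 6.83 in control livers. The values of both groups interleave, with a log2 change of -0.10 and a 95% interval of -0.27 to 0.069. Its partner Col4a2 had a log2 change of -0.087, and the laminin chain genes Lama2, Lamb1 and Lamc1 had log2 changes of -0.23, -0.17 and -0.14. The basement membrane collagens Col15a1 and Col18a1, the second of which holds the endostatin sequence, had log2 changes of -0.016 and 0.070. Nid1, whose product links laminin to collagen IV, had the lowest log2 change of these genes, at -0.39 (adjusted p = 0.355), and the smallest p of the class at day 3. Its log2 intensities were 9.85, 9.78, 9.98 and 9.94 in treated livers and 10.31, 10.50, 10.47 and 9.82 in control livers. Only the fourth control array overlapped the treated values.

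Of the 6 proteoglycan genes, 2 fell at day 3. Lum encodes lumican, a small leucine-rich proteoglycan that spaces collagen fibrils. Its log2 intensities were 5.26, 4.55, 4.17 and 4.26 in treated livers and 5.68, 5.90, 5.92 and 5.71 in control livers of day 3. All treated arrays were lower, and 3 of the 4 lay below the median probe set of the arrays, so the fold may be understated. Lum fell by 1.25 ± 0.18 (SE) on the log2 scale, the lowest log2 change of the 45 genes, with an adjusted p of 0.00672.

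Dcn, whose product decorin binds collagen and TGF-beta, had log2 intensities of 7.99, 7.40, 7.06 and 7.34 in treated livers and 8.34, 8.34, 8.65 and 8.40 in control livers of day 3. The first treated array came close to the controls for Dcn and for Lum, and the other treated arrays lay well below them. Dcn fell by 0.98 ± 0.21 (SE) on the log2 scale, or 1.98-fold (95% interval 1.44 to 2.71), with an adjusted p of 0.0359. The call held in 7 of 16 fits that each left out 1 array, with adjusted p up to 0.118. Lum and Dcn are adjacent protein-coding genes on chromosome 7 of the GRCr8 assembly. The other leucine-rich proteoglycan genes Bgn (biglycan), Ogn (osteoglycin) and Fmod (fibromodulin) had log2 changes of -0.54 (adjusted p = 0.228), -0.48 (adjusted p = 0.271) and -0.23 (adjusted p = 0.581). Vcan, which encodes the large proteoglycan versican, had a log2 change of -0.0043 at a level below the array median.

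Elastic fibres consist of elastin on a scaffold of fibrillin microfibrils, and 1 of the 6 genes fell at day 3. Mfap4, which encodes a microfibril-associated glycoprotein, had log2 intensities of 7.64, 7.41, 7.63 and 7.16 in treated livers and 8.88, 8.51, 8.30 and 8.35 in control livers. The groups were separated by a wide gap. Mfap4 fell by 1.05 ± 0.17 (SE) on the log2 scale, or 2.07-fold (95% interval 1.61 to 2.65), with an adjusted p of 0.00776. A second probe set named for Mfap4 differed by -0.59 on the log2 scale, a smaller difference in the same direction. The elastin gene Eln, the fibrillin gene Fbn1 and the fibulin genes Fbln1, Fbln2 and Fbln5 had log2 changes from -0.29 for Fbn1 to -0.014 for Fbln2, none of them called.

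Matricellular proteins sit in the matrix and act on cells rather than bearing load. Of the 4 genes, only Sparc, which encodes a collagen-binding protein, passed the test at day 3. Sparc had log2 intensities of 13.57, 13.79, 13.75 and 13.50 in treated livers and 14.28, 14.32, 14.31 and 13.94 in control livers. The fourth control array lay apart from the other controls but above every treated array. Sparc fell by 0.56 ± 0.12 (SE) on the log2 scale with an adjusted p of 0.0372, and the call held in 7 of 16 fits that each left out 1 array, with adjusted p up to 0.126. The thrombospondin gene Thbs2 had a log2 change of -0.0067, and Postn (periostin) and Tnc (tenascin C), both below the array median, had log2 changes of -0.12 and -0.027.

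Among the 7 genes that process and crosslink collagen, 1 fell at day 3. Loxl2, a lysyl oxidase family enzyme that crosslinks collagen, had log2 intensities of 7.40, 7.23, 7.49 and 7.52 in treated livers and 7.87, 7.92, 7.83 and 7.75 in control livers. The groups were apart, and Loxl2 fell by 0.43 ± 0.086 (SE) on the log2 scale with an adjusted p of 0.0223. This call held in 11 of 16 fits that each left out 1 array, with adjusted p up to 0.0791. Serpinh1, which encodes the procollagen chaperone HSP47, had a log2 change of -0.44 with no overlap of the groups (adjusted p = 0.296). Adamts2, which removes the amino-terminal propeptide of procollagen, P4ha3, a prolyl 4-hydroxylase subunit gene, and Loxl1, a further lysyl oxidase gene, had log2 changes of -0.23, -0.13 and -0.17. Pcolce, whose product speeds removal of the other propeptide, had a log2 change of 0.10 (adjusted p = 0.745).

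Lox itself, which is described here because its spread was seen to be wide, varied too widely between arrays for its changes to be measured closely. Its log2 intensities were 6.52, 6.65, 8.02 and 6.68 in treated livers and 7.04, 5.92, 6.48 and 9.82 in control livers of day 3. At day 14 they were 12.12, 9.61, 5.94 and 10.72 in treated livers and 11.15, 7.85, 11.37 and 9.86 in control livers. Single arrays of a group differed by several log2 units, and the pooled SD of 1.81 exceeded that of 99.9% of genes. The log2 change was -0.35 ± 1.14 (SE; adjusted p = 0.963) at day 3 and -0.46 ± 1.14 (SE; adjusted p = 0.940) at day 14 for phenformin against control. Day 14 minus day 3 gave log2 changes of 2.63 ± 1.14 (SE; adjusted p = 0.612) in treated livers and 2.74 ± 1.14 (SE; adjusted p = 0.606) in control livers, with overlapping groups in both.

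Of the 4 turnover genes, 1 fell at day 3. Mmp2, which encodes a gelatinase of the matrix metalloproteinase family, had log2 intensities of 7.49, 7.41, 7.62 and 7.65 in treated livers and 8.04, 8.06, 7.90 and 7.87 in control livers. All treated arrays were lower than all controls. Mmp2 fell by 0.42 ± 0.083 (SE) on the log2 scale with an adjusted p of 0.0199, and the call held in 12 of 16 fits that each left out 1 array, with adjusted p up to 0.0791. The protease inhibitor genes Timp1 and Timp2 had log2 changes of -0.45 (adjusted p = 0.119) and -0.13 (adjusted p = 0.596). Mmp14, whose product is anchored in the membrane and activates the Mmp2 product, had a log2 change of 0.23 (adjusted p = 0.624), the highest of the 45 genes.

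**Figure D3:**
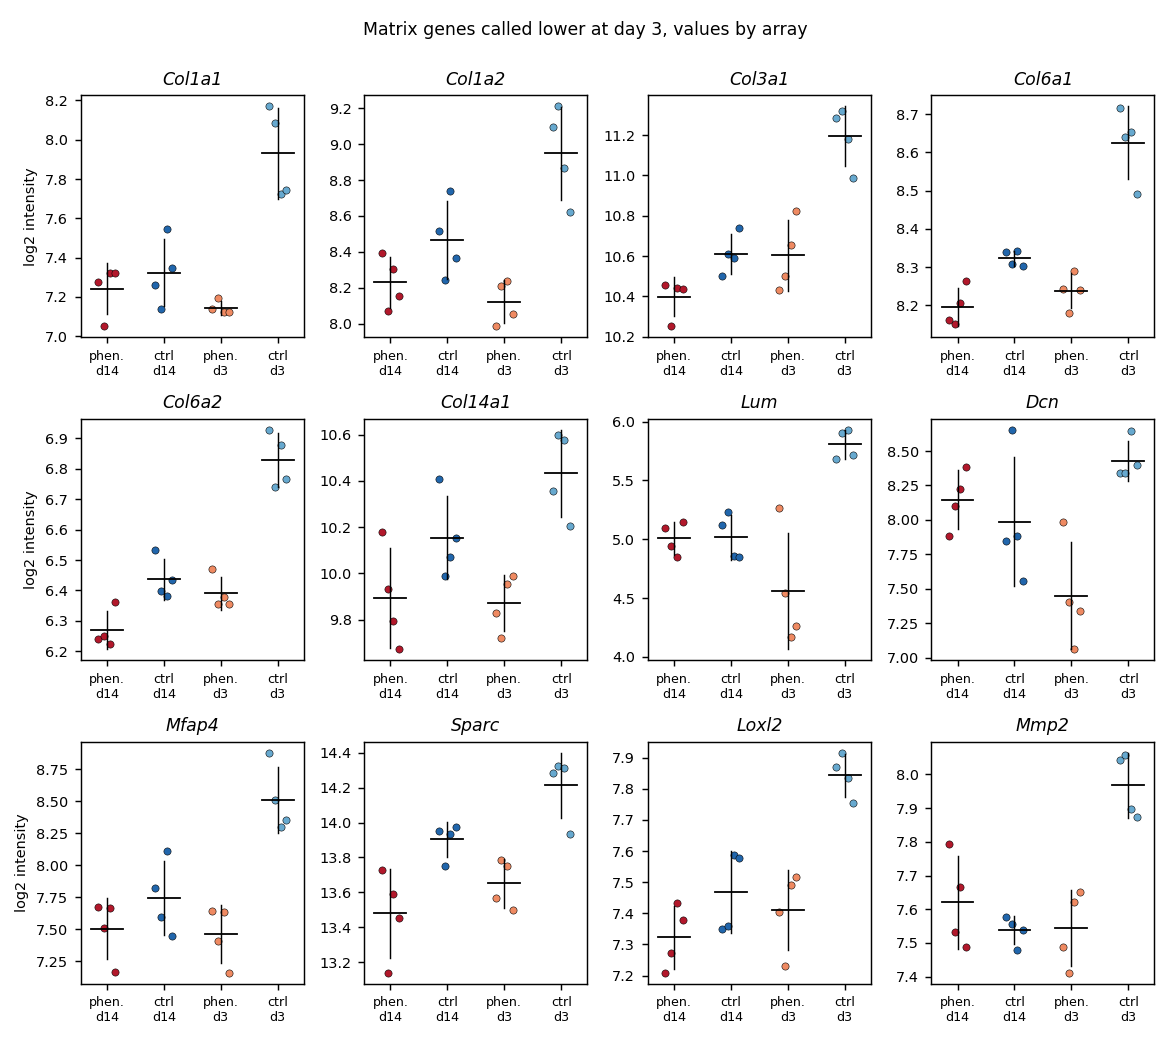
Log2 intensity of the 12 matrix genes called lower at day 3, by array (points), with the group mean (horizontal line) and SD (vertical line, n = 4 arrays per group). In every panel the 4 control day 3 arrays lie above the 4 phenformin day 3 arrays, and each panel has its own vertical axis, which does not start at 0.

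The promoters of genes that moved together at day 3 were set beside those of basement membrane genes that were not called. RefSeq's GRCr8 promoter table held 30 of the 45 genes, but only 4 of the 12 called ones. The 250 bases before each annotated start were searched on both strands for 3 short motifs: the CCAAT box, the GC box in the form GGGCGG, and the TATA box in the form TATAAA. An annotated start need not be where transcription begins, so the absence of a motif holds for the window only. A match on the other strand reads as the reverse complement. Of the 8 basement membrane promoters 2 were picked by hand, those of Col4a1 and the laminin gene Lamc1. They and the 4 called genes are printed on the strand of the gene, with matches in capitals. Their positions are chr4:33518307-33518556 (plus strand) for Col1a2, chr20:11905440-11905689 (plus strand) for Col6a1, chr7:34245456-34245705 (plus strand) for Lum, chr10:40038817-40039066 (minus strand) for Sparc, chr16:84885347-84885596 (plus strand) for Col4a1 and chr13:68051987-68052236 (minus strand) for Lamc1.
Col1a2: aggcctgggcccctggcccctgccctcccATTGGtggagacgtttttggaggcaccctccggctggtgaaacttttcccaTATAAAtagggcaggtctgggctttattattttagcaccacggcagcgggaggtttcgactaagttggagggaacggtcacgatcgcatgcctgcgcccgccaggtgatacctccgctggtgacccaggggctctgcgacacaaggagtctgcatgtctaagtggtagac
Col6a1: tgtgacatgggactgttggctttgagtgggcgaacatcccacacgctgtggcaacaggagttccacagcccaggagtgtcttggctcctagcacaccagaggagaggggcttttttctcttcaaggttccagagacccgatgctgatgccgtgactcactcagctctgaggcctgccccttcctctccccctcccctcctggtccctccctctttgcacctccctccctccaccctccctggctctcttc
Lum: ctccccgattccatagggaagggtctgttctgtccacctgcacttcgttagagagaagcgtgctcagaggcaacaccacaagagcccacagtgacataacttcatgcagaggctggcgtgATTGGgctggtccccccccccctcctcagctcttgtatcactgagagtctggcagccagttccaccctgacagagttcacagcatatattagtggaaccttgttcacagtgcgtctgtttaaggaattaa
Sparc: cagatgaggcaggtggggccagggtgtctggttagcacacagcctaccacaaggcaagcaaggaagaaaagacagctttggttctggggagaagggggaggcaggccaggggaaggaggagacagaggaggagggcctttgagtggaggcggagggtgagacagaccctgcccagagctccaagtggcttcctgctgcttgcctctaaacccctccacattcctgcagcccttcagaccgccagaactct
Col4a1: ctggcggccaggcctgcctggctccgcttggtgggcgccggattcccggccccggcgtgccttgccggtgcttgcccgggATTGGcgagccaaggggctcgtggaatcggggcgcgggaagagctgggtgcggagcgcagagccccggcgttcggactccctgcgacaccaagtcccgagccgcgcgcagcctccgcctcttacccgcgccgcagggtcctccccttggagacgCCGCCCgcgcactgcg
Lamc1: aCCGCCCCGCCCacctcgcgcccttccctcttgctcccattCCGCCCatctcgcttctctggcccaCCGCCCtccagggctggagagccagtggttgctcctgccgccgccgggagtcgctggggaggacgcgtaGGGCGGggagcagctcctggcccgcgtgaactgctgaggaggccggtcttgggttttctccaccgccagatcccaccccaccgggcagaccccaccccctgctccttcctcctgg

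Col1a2 holds 1 CCAAT and 1 TATAAA match, Lum 1 CCAAT match, and Col6a1 and Sparc none of the 3 motifs. Col4a1 holds 1 CCAAT and 1 GGGCGG match and Lamc1 5 GGGCGG matches, the first pair of which shares a base. Over the promoters of the list, GGGCGG was found in 0 of 4 called genes, 19 of 26 genes that were not called and 7 of 8 basement membrane genes, and in 30.5% of the 33469 promoters of the table. CCAAT was found in 8 of the 30 promoters and 34% of all, and TATAAA in 4 of the 30 and 12.9% of all. For each gene of the list 1 promoter was kept, while the shares of the table count every promoter in it. No match overlapped one of another motif. Col4a1 and its neighbour Col4a2 both count for CCAAT and GGGCGG, and whether their windows share bases was not checked. The 8 called genes without a promoter in the table include Col1a1 and Col3a1, so these counts describe the 30 promoters of the table and not the whole list.

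Matrix genes outside the 45 were read from 6 further lists, 112 of whose 117 entries were measured. At day 3, 0 of 13 other collagens, 0 of 18 other collagen synthesis enzymes and chaperones, 0 of 29 other glycoproteins and proteoglycans, 0 of 19 other proteases and inhibitors and 0 of 19 genes of the TGF-beta and PDGF pathways were called in either direction. The median log2 changes of these lists lay between -0.061 for the other collagens and -0.14 for the other glycoproteins and proteoglycans. Of 14 matrix receptor genes 1 fell: Dag1, which encodes the laminin receptor dystroglycan, had a log2 change of -0.49 ± 0.099 (SE; adjusted p = 0.0253). The log2 change was below 0 in 12 of 13 other collagens, 16 of 18 synthesis enzymes, 25 of 29 glycoproteins and 12 of 14 receptors. It was below 0 in 11 of 19 proteases and 12 of 19 signalling genes, against 48.0% of all genes. All treated arrays lay below all controls in 1, 3, 4, 2, 3 and 3 genes of these lists, in that order. They lay above in 1 synthesis enzyme. Over all genes these shares were 4.17% and 3.51%.

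The genes nearest to a call in each list were as follows. Among the other collagens they were Col27a1, with a log2 change of -0.18 (adjusted p = 0.242), and Col4a5, at -0.17 (adjusted p = 0.484). The lysyl oxidase gene Loxl4, at 1.24 (adjusted p = 0.0538), and the lysyl hydroxylase gene Plod2, at -0.40 (adjusted p = 0.202), led the synthesis enzymes. Nid2, which encodes a second nidogen, had a log2 change of -0.25 (adjusted p = 0.187) and Efemp1, a fibulin family gene, -0.40 (adjusted p = 0.260).

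The proteases were led by Mmp19 (log2 change -0.54, adjusted p = 0.171) and Adamts1 (-0.41, adjusted p = 0.197). Of the signalling genes, Inhba, which encodes an activin subunit, had a log2 change of -1.09 (adjusted p = 0.126) and Skil, a repressor of TGF-beta signalling, -0.67 (adjusted p = 0.190). None of these 10 genes was called, and Loxl4 differed in the direction opposite to Loxl2.

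Markers of the cells that a liver piece can hold were read on the same arrays. Of 11 stellate cell markers 1 fell at day 3 (Colec11, log2 change -0.44, adjusted p = 0.0327), and their summed intensity ranged from 12068 to 15143 in treated livers and from 15460 to 18615 in control livers. Markers of activated stellate cells and smooth muscle, with 0 of 6 called, summed to 541 to 658 in treated livers and 709 to 806 in control livers. Those of portal fibroblasts and mesothelium, with 0 of 8 called, summed to 294 to 332 in treated livers and 346 to 385 in control livers, with Thy1, Gli1 and Wt1 below the array median in all groups. In each of these 3 lists the treated sums lay below the control sums without overlap.

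The sums of the other cell types were not lower in that way, though a sum mostly follows its brightest genes. By gene, all treated arrays lay below all controls in 3 of 8 sinusoidal endothelial markers and above them in 1. They lay below in 2 of 11 stellate cell markers, 1 of 6 activated stellate cell and smooth muscle markers and 2 of 8 portal markers. In these last 3 lists they lay above in 0. Over all genes these shares were 4.17% below and 3.51% above. Sinusoidal endothelial markers, with 1 of 8 lower (Stab2, log2 change -0.56, adjusted p = 0.0412), summed to 20862 to 26659 in treated livers and 21174 to 26626 in control livers. Kupffer cell markers (0 of 8 called) summed to 13918 to 35808 in treated livers and 10109 to 22348 in control livers, and hepatocyte markers (0 of 7) to 2824030 to 2973700 in treated and 2848650 to 2915820 in control livers. The hepatocyte sum is set by genes of very high intensity and can hide changes of the others. By gene, the hepatocyte markers had log2 changes from -0.41 to 0.20, with a median of -0.0026. Cholangiocyte markers (0 of 6 called) summed to 652 to 813 in treated livers and 588 to 636 in control livers, so that the treated sums were the higher ones. Of these 6 genes only Epcam, named after its value was seen, at 0.81 (adjusted p = 0.0615), had a log2 change above 0 at day 3, and the median of the 6 was -0.11.

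Genes of dividing cells stood furthest apart. Of 8 cell division markers 7 fell at day 3 (Mki67, Top2a, Cdk1, Ccnb1, Aurkb, Rrm2 and Bub1), and their summed intensity was 266 to 803 in treated livers, against 2724 to 5193 in control livers. No marker was at 0 on any array. These markers moved with the matrix genes at day 3, and their part in the result was not tested.

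**Figure D4:**
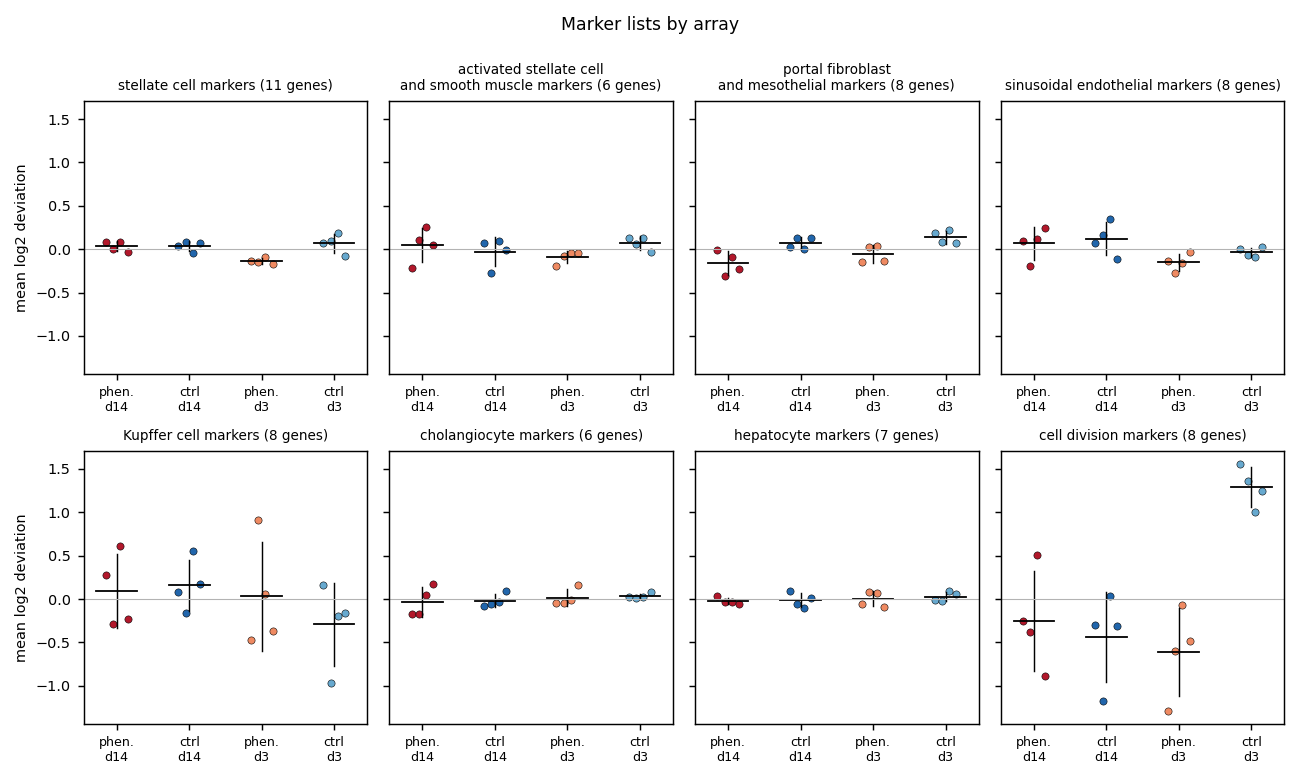
Mean log2 deviation of the genes of each marker list from their own mean over the 16 arrays, by array (points), with the group mean (horizontal line) and SD (vertical line, n = 4 arrays per group). The cell division markers of the 4 control day 3 arrays lie above all other arrays, and the stellate cell markers of the 4 phenformin day 3 arrays lie below all other arrays.

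After 14 days of phenformin, 0 of the 45 matrix genes were called in either direction. The background was 0.177% lower and 0.145% higher among all genes. At an unadjusted p under 0.05, 5 genes were lower and 1 higher, against 4.73% and 6.51% of all genes. The median log2 change was -0.064, and 33 of the 45 genes were below 0, against a median of 0.00026 over all genes, of which 49.96% were below 0. All 4 treated arrays lay below all 4 control arrays in 8 genes (Col3a1, Col4a1, Col4a2, Col5a1, Col6a1, Col6a2, Sparc and Timp2) and above them in Mmp14, against 2.44% and 2.79% of all genes.

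The type I collagen genes did not separate the groups at this time. Col1a1 had log2 intensities of 7.27, 7.05, 7.32 and 7.32 in treated livers and 7.26, 7.14, 7.55 and 7.35 in control livers of day 14, with a log2 change of -0.081 and a 95% interval of -0.32 to 0.16. Col1a2 had log2 intensities of 8.39, 8.07, 8.30 and 8.16 in treated livers and 8.52, 8.24, 8.74 and 8.36 in control livers, with a log2 change of -0.24 (adjusted p = 0.553). Both sets of values interleave.

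The type III collagen gene and 2 of the 3 collagen VI genes kept a narrow gap between the groups. Col3a1 had log2 intensities of 10.46, 10.25, 10.44 and 10.44 in treated livers and 10.50, 10.61, 10.59 and 10.74 in control livers, a log2 change of -0.21 (adjusted p = 0.440). Col6a1 had 8.16, 8.15, 8.21 and 8.26 in treated livers and 8.34, 8.31, 8.34 and 8.30 in control livers in log2 intensity, with a log2 change of -0.13 (adjusted p = 0.479). Col6a2 had log2 intensities of 6.24, 6.25, 6.22 and 6.36 in treated livers and 6.53, 6.40, 6.38 and 6.44 in control livers, a log2 change of -0.17 (adjusted p = 0.353). The groups lay apart for these 3 genes, by less than at day 3. The other collagen VI gene, Col6a3, had log2 intensities of 7.29 to 7.71 in treated livers and 7.42 to 7.62 in control livers, so that the groups overlapped, with a log2 change of -0.047 (adjusted p = 0.917).

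Col4a1, the collagen IV chain gene, was separated at day 14 and not at day 3, and so were Col4a2, Col5a1 and Timp2. The log2 intensities of Col4a1 were 6.52, 6.53, 6.38 and 6.51 in treated livers and 6.68, 6.58, 6.76 and 6.80 in control livers. The gap between the groups was narrow, with a log2 change of -0.22 (adjusted p = 0.292). Sparc had log2 intensities of 13.73, 13.14, 13.59 and 13.46 in treated livers and 13.95, 13.75, 13.93 and 13.97 in control livers, a log2 change of -0.42 (adjusted p = 0.169). Mmp14, named here because it was the only gene with treated arrays above all controls, had 9.86, 9.73, 9.87 and 9.83 in treated livers and 9.10, 9.62, 9.45 and 9.20 in control livers in log2 intensity. Its log2 change was 0.48 (adjusted p = 0.168).

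The remaining genes called at day 3 overlapped between the groups at day 14. Lum had log2 intensities of 5.10, 4.94, 4.85 and 5.15 in treated livers and 5.12, 5.23, 4.86 and 4.85 in control livers, a log2 change of -0.0087 with a 95% interval of -0.40 to 0.38. Its group means of 5.01 in treated and 5.02 in control livers lay at the level of the median probe set, where changes may be understated. Dcn had 7.88, 8.10, 8.22 and 8.38 in treated livers and 7.85, 8.66, 7.89 and 7.56 in control livers in log2 intensity, a log2 change of 0.16 with a 95% interval of -0.29 to 0.62. Mmp2 had log2 intensities of 7.79, 7.53, 7.67 and 7.49 in treated livers and 7.58, 7.55, 7.48 and 7.54 in control livers, a log2 change of 0.083. For these 3 genes the treated and control arrays were mixed.

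Mfap4 had log2 intensities of 7.68, 7.51, 7.66 and 7.17 in treated livers and 7.82, 7.60, 8.11 and 7.45 in control livers of day 14, a log2 change of -0.24 (adjusted p = 0.662). Loxl2 had 7.21, 7.27, 7.43 and 7.38 in treated livers and 7.35, 7.36, 7.59 and 7.58 in control livers in log2 intensity, a log2 change of -0.15 (adjusted p = 0.586). Col14a1 had log2 intensities of 10.18, 9.93, 9.80 and 9.67 in treated livers and 10.41, 9.99, 10.07 and 10.15 in control livers, a log2 change of -0.26 (adjusted p = 0.458). The treated group mean was the lower one in all 3 genes, by less than the range of the arrays within each group.

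Of the 6 further matrix lists, none held a called gene at day 14. All treated arrays lay below all controls in 5 of 13 other collagens and 4 of 18 synthesis enzymes and chaperones. They did so in 2 of 29 glycoproteins and proteoglycans, 0 of 19 proteases and inhibitors, 2 of 19 signalling genes and 2 of 14 receptors. In all 6 lists they lay above in 0. Over all genes these shares were 2.44% below and 2.79% above. The log2 change was below 0 in 12 of the 13 collagens. The genes nearest to a call were Plod2 (log2 change -0.61, adjusted p = 0.0594) and Colgalt1 (-0.45, adjusted p = 0.134) of the synthesis enzymes, Col4a5 (-0.31, adjusted p = 0.132) and Col8a1 (-0.32, adjusted p = 0.338) of the collagens, and Lama4 (-0.28, adjusted p = 0.245) and Mfap2 (-0.27, adjusted p = 0.339) of the glycoproteins. Adamts1 (0.42, adjusted p = 0.200) and Mmp19 (-0.48, adjusted p = 0.248), Inhba (-1.19, adjusted p = 0.109) and Skil (-0.62, adjusted p = 0.248), and Dag1 (-0.41, adjusted p = 0.0929) and Itgb3 (-0.23, adjusted p = 0.381) led the other 3 lists. Of the marker lists 1 gene was called, Cd34 of the portal fibroblast and mesothelial list, with a log2 change of -0.58 (adjusted p = 0.0214). The summed intensity of that list was 259 to 318 in treated livers and 331 to 367 in control livers of day 14. Stellate cell markers summed to 14107 to 21009 in treated livers and 14943 to 17996 in control livers, and cell division markers to 377 to 1447 in treated and 293 to 953 in control livers, so both overlapped.

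Whether the effect of phenformin differed between the times was tested as the effect at day 14 minus the effect at day 3. By that test 0 of the 45 genes were called, against 0.00453% of all genes higher and 0% lower. At an unadjusted p under 0.05, 14 genes were higher and 0 lower, against 2.78% and 1.9% of all genes. The differences nearest to a call were 1.24 ± 0.26 (SE) for Lum (adjusted p = 0.160), 0.71 ± 0.16 (SE) for Col1a1 (adjusted p = 0.170), 0.51 ± 0.12 (SE) for Mmp2 (adjusted p = 0.180) and 1.14 ± 0.30 (SE) for Dcn (adjusted p = 0.367), all as log2 changes. Because Lum lay at the level of the median probe set at day 14, the size of its difference is uncertain. The median over the 45 genes was 0.18, against 0.0021 over all genes. The calls at day 3 and their absence at day 14 are therefore not shown to differ by this test.

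Control livers themselves differed between the times. At day 14, 4 of the 45 genes were lower than at day 3 and 0 were higher, against 0.353% and 0.0498% of all genes. Col1a1 fell by 0.61 ± 0.11 (SE; adjusted p = 0.0351), Col3a1 fell by 0.58 ± 0.099 (SE; adjusted p = 0.0289), Col6a2 fell by 0.39 ± 0.067 (SE; adjusted p = 0.0303) and Mmp2 fell by 0.43 ± 0.083 (SE; adjusted p = 0.0388) on the log2 scale. These are the differences between the control values already given for each day, and for all 4 genes the control arrays of day 14 lay below those of day 3 without overlap. Of 16 fits that each left out 1 array, the call held in 7 for Col1a1 (adjusted p up to 0.141), 12 for Col3a1 (up to 0.127), 9 for Col6a2 (up to 0.127) and 5 for Mmp2 (up to 0.156). None of the 4 was called without control array 1 or 2 of day 3, or without control array 2 of day 14.

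The median log2 change in control livers was -0.19, and 41 of the 45 genes were below 0, against a median of -0.0039 over all genes, of which 51.2% were below 0. In 15 genes all control arrays of day 14 lay below all of day 3 and in 0 above, against 2.96% and 1.54% of all genes. At an unadjusted p under 0.05, 22 genes were lower and 1 higher (Lox), against 4.68% and 2.47% of all genes. Lum (-0.79, adjusted p = 0.0934), Mfap4 (-0.76, adjusted p = 0.0666), Loxl2 (-0.37, adjusted p = 0.0856) and Col6a1 (-0.30, adjusted p = 0.0536) were among the separated genes and were not called. The cell division markers differed alongside, with 6 of 8 lower and summed intensities of 293 to 953 at day 14 and 2724 to 5193 at day 3, and stellate cell markers summed to 14943 to 17996 at day 14 and 15460 to 18615 at day 3. Their part in the difference was not tested.

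In treated livers, 0 of the 45 genes were called between day 14 and day 3, nor was any of all 22093 genes (0% in either direction). At an unadjusted p under 0.05, 6 of the 45 were lower and 4 higher, against 3.94% and 3.77% of all genes. All treated arrays of day 14 lay below those of day 3 in 4 genes (Col4a1, Col4a2, Col5a1 and Vcan) and above them in 0, against 2.15% and 2.1% of all genes, and the median log2 change was -0.0074. Col1a1 and Col1a2 had log2 changes of 0.098 and 0.11 between these groups, and Dcn and Lum of 0.70 (adjusted p = 0.437) and 0.45 (adjusted p = 0.594).

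The comparison of phenformin with control at day 3 and that of control livers between the times share the 4 control arrays of day 3. The mean of that group was the highest of the 4 group means in 37 of the 45 genes (82.2%), against 26.3% of all genes. It was the highest in 5 of 5 fibrillar collagen genes, 3 of 3 collagen VI genes, 6 of 6 proteoglycans, 2 of 2 fibril-associated collagens, 4 of 4 matricellular genes and 7 of 8 basement membrane genes. The share was smaller in elastic fibre genes (4 of 6), crosslinking and processing genes (4 of 7) and turnover genes (2 of 4), without a test of the classes against each other. Col1a1, for example, averaged 7.24 ± 0.13 in phenformin day 14, 7.32 ± 0.17 in control day 14, 7.14 ± 0.034 in phenformin day 3 and 7.93 ± 0.23 in control day 3 livers in log2 intensity (SD, n = 4 each). Lum averaged 5.01 ± 0.14 in phenformin day 14, 5.02 ± 0.19 in control day 14, 4.56 ± 0.50 in phenformin day 3 and 5.81 ± 0.13 in control day 3 livers. For Col1a1 the first 3 of these groups overlapped one another and the control livers of day 3 stood apart, and for Lum the treated livers of day 3 had the lowest mean with the widest spread.

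**Figure D5:**
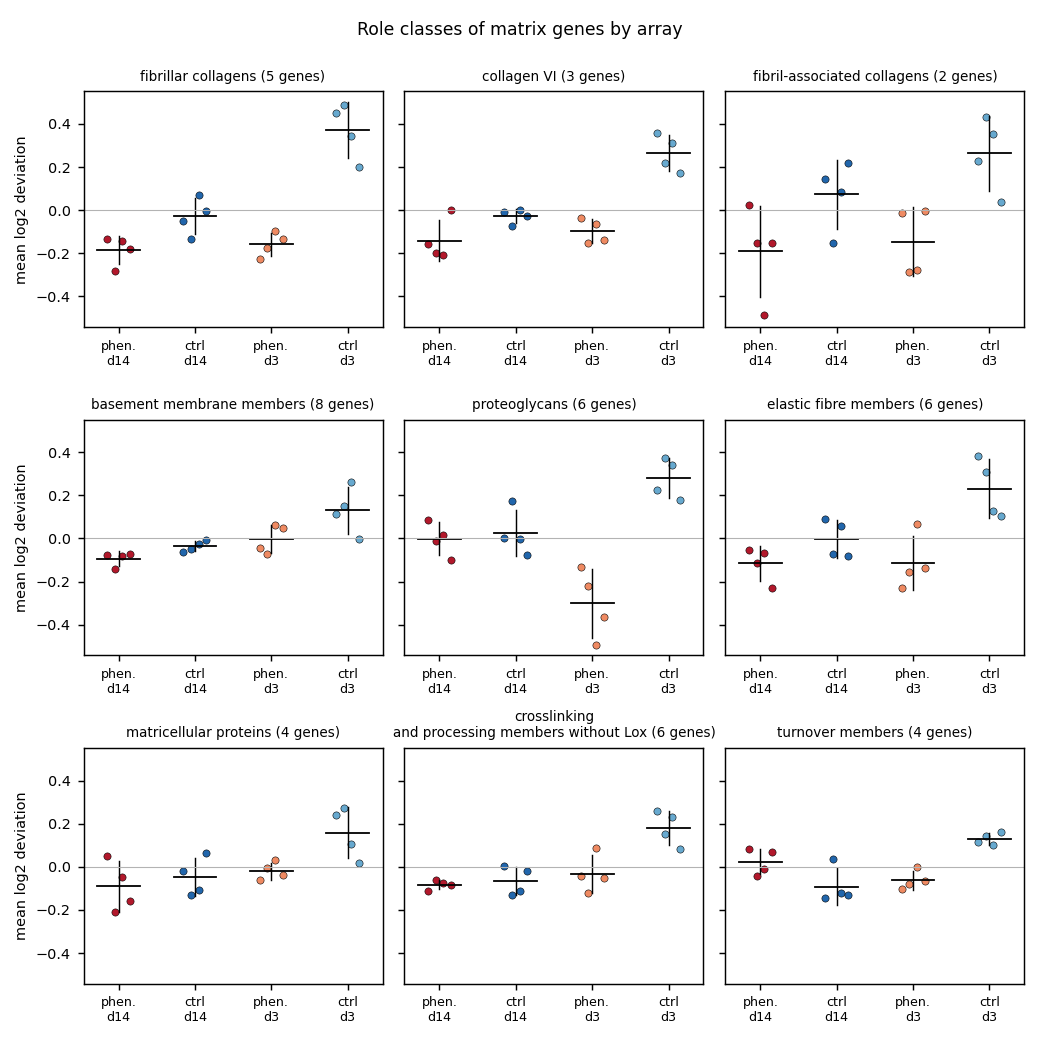
Mean log2 deviation of the matrix genes of each role class from their own mean over the 16 arrays, by array (points), with the group mean (horizontal line) and SD (vertical line, n = 4 arrays per group), Lox left out of the crosslinking class. The control day 3 group has the highest mean in all 9 panels, and for fibrillar collagens its arrays lie between 0.20 and 0.49 while those of the other 3 groups lie at 0.069 or below.

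Genes of one class lie close together in places. Besides Dcn and Lum, the pairs Col6a1 and Col6a2, Col4a2 and Col4a1, and Col3a1 and Col5a2 are neighbours among protein-coding genes of GRCr8. Col3a1 was called at day 3 and its neighbour Col5a2 was not. For the 5 genes with a second probe set named for them, the day 3 differences of both sets had the same sign: -0.26 and -0.24 for Col12a1, -0.016 and -0.029 for Col15a1, and -0.48 and -0.42 for Ogn on the log2 scale, beside Col1a2 and Mfap4 above.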

How the data were processed

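RNA of 16 rat livers was hybridised to 1-colour Affymetrix whole-transcript arrays. For each array the deposited table gives an intensity of every probe set. Per the submitters' processing notes these come from RMA, which corrects background, normalizes arrays and summarises probes. The deposited intensity is on a linear scale, while RMA gives log2 values, and the highest log2 value was 19.93. The sources used here name no program, version or later change of scale, so a fold compares deposited values and can differ from the ratio of the RNA.

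Of 68842 probe sets, 23446 carried 1 gene symbol, 505 several and 44891 none here. Where a gene had several probe sets, the one with the highest mean stood for it, which left 22093 genes. All 45 matrix genes matched the GRCr8 RefSeq table by symbol and chromosome. Promoter sequences are RefSeq's, GRCr8.

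Intensities were put on the log2 scale without a pseudocount, and no gene was filtered out. Groups and replicate numbers come from the sample titles, which call the arrays biological replicates, so each was taken as 1 rat. limma 3.58.1 in R 4.3.3 fitted 4 group means over all 16 arrays (12 residual degrees of freedom, 15.2 with the prior), and p-values were adjusted by Benjamini-Hochberg over 22093 genes. A run on simulated data, with independent genes of equal spread in all groups, checked only the direction and rough size of added shifts. The fit takes a gene's spread as equal in the 4 groups, so intervals can be too narrow where a group spread more, as for Lum and Dcn in treated livers of day 3.

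The matrix genes and all lists were chosen with earlier results of these data known. Values of every array are given for genes called in any of the 5 comparisons, at most 4 per role, and for the gene with the smallest p in a role without a call. In the further lists called genes are named, otherwise the 2 with the smallest p, which is done for the comparisons of phenformin with control. Names outside this rule are marked in the text.

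Alternatives were a trend with a robust prior, testing only genes above the middle of the ranking by mean level, quantile normalization, centring on array medians, array weights, fitting only the 2 groups compared, averaging probe sets, the replicate number as a block, and leaving out each array in turn. The sources used here give no cage, scan date or batch. The number of arrays limits the precision.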

Additional observations from a re-analysis of the deposited data

Results flagged for a closer look

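A group of 4 arrays was marked where its highest or lowest array lay so far from its neighbour that the gap, as a share of the range of the group, passed Dixon's critical value for 4 samples. This was the case for 10 of the 180 combinations of gene and group, and chance alone flags about 1 in 20 groups.

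In treated livers of day 14, Col3a1 had 1 low array at a log2 intensity of 10.25, against 10.44 to 10.46 in the other 3 arrays of the group. Nid1 was low on the same array at 9.41, against 9.85 to 9.87. On another treated array of day 14, Col4a1 was low at 6.38, against 6.51 to 6.53, and Col5a1 was low at 6.18, against 6.19 to 6.20, a gap smaller than the usual spread of the genes.

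In treated livers of day 3, Lox was high on 1 array at 8.02, against 6.52 to 6.68, and Pcolce was low on another at 6.44, against 6.69 to 6.72. In control livers of day 14, Col18a1 was low on 1 array at 11.45, against 11.74 to 11.78.

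In control livers of day 3, Bgn was low on the fourth array at 15.35, against 15.67 to 15.68, and so was Sparc on the same array at 13.94, against 14.28 to 14.32. Col5a2 was high on the second array at 6.75, against 6.64 in the other 3. Without the fourth control array, the log2 change of Sparc at day 3 was -0.65.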

How the results depend on the processing

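No called result changed direction under any alternative run. With only the 2 groups compared in the fit, the day 3 comparison called 5 matrix genes in place of 12 (Col1a1, Col1a2, Col6a2, Lum and Mfap4), and the control comparison between times called 0 in place of 4. Array weights called 7 in the control comparison. The median log2 change of the crosslinking and processing genes at day 3 was -0.35 when only genes above the middle of the ranking by mean were tested, a setting that dropped 2 of the 7 and did not test Lum. Apart from the replicate block given below, all other counts of called matrix genes and medians stayed within 1.5 times or within the spread under the alternatives that kept every array. Quantile normalization called 9 matrix genes at day 3, losing Col14a1, Sparc and Mmp2 (adjusted p = 0.0768, 0.106 and 0.0501).

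Over the 16 fits that each left out 1 array, the day 3 count ran from 7 to 12, and it was 7 without control array 1, control array 2 or phenformin array 2 of day 3. Col1a1, Col1a2, Col3a1, Col6a1, Col6a2, Lum and Mfap4 were called in all 16. Dcn lost its call without any 1 of the control arrays or of treated arrays 2, 3 and 4 of day 3, control array 1 or treated array 2 of day 14 (adjusted p 0.0506 to 0.118). Col14a1 lost it without any 1 of the treated arrays or control arrays 1, 2 and 3 of day 3, or treated array 2 of day 14 (0.0539 to 0.137). Sparc lost it without any 1 of the treated arrays or control arrays 1, 2 and 3 of day 3, control array 1 or treated array 4 of day 14 (0.0521 to 0.126). Loxl2 lost it without control arrays 1, 2 or 3 or treated arrays 1 or 2 of day 3 (0.0574 to 0.0791), and Mmp2 without control arrays 1 or 2 or treated arrays 1 or 2 (0.0704 to 0.0791).

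The count of the control comparison ran from 0 to 5. It was 0 without control arrays 1 or 2 of day 3 or control array 2 of day 14, 1 without control array 4 of day 3 or control arrays 1 or 4 of day 14, and 2 without control array 3 or treated arrays 2 or 4 of day 3. The count for the difference of effects ran from 0 to 1, with Lum called without treated array 1 of day 3, and its median from 0.16 to 0.23, the upper end without control array 4 of day 3. Day 14 and the treated comparison between times stayed at 0 called.

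The titles number the replicates alike in all groups, but same-numbered arrays did not deviate together in every pair: correlations of their deviations were -0.042 to 0.10 at day 3 and -0.026 to 0.16 at day 14. The samples share only a number. With the replicate block, 9 matrix genes were called at day 3 and 2 in place of 4 in the control comparison (Col6a2 and Mfap4), where Col1a1, Col3a1 and Mmp2 were not called.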
